A study of Homo sapiens with 4 samples.

Results

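The 10 genes described here handle iron in human cells. They were taken from the table of 27452 genes by symbol: the ferritin chains FTH1 and FTL, the ferritin receptor NCOA4, the transferrin receptors TFRC and TFR2, the endosomal iron reductase STEAP3, the iron regulatory proteins IREB2 and ACO1, the iron-sensing ubiquitin ligase subunit FBXL5, and heme oxygenase HMOX1. All 10 were found and all 10 passed the low-count filter. RNA sequencing measured their messenger RNA in a line labelled HepG2, a human hepatoma line, made to carry a hairpin RNA that targets STAT3 (STAT3 shRNA, 2 libraries) or a control hairpin (Ctrl shRNA, 2 libraries). The study asked what lowering the transcription factor STAT3 does to the expression of other genes. All 4 libraries share the line, its serum-containing medium and the presence of a hairpin. Hairpin sequences and the number of clones are not given in the labels, nor is it said if libraries with the same hairpin are separate cultures. The p-values therefore rest on library-to-library spread that may be technical.

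Iron enters most cells bound to transferrin, which TFRC carries into endosomes. There STEAP3 reduces the iron so that it can leave for the cytosol. Iron that is not used at once is stored inside ferritin, a hollow shell of heavy chains (FTH1), which oxidize the incoming iron, and light chains (FTL), which help to lay down the mineral core. NCOA4 takes ferritin to the lysosome, where the iron is released. When iron is scarce, the proteins encoded by ACO1 (IRP1) and IREB2 (IRP2) bind stem-loops called iron-responsive elements. At the start of an mRNA the bound protein blocks translation, and in the 3′ untranslated region of TFRC it protects the mRNA from decay. FBXL5 marks IRP2 for destruction when iron is plentiful.

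The stem-loops are printed because they set the ferritin chains, whose mRNA is controlled at translation, apart from TFRC, whose mRNA is controlled by decay. A search of GENCODE 29 transcripts on the transcribed strand for a bulged C, 5 bases of stem, the loop CAGTGN and 5 bases able to pair with the stem (G with T allowed) found one element each in the 5′ untranslated regions of FTH1 and FTL and 4 in the 3′ untranslated region of TFRC. It found the pattern in the 5′ region of 0.189% of 19028 genes and in the 3′ region of 0.675% of 19560 genes. Elements that depart from this pattern were not counted. Each line gives 28 bases of the transcript, 5′ to 3′, with T for U and the loop in capitals (GRCh38). Gene positions given with each gene are also those of GENCODE 29 on GRCh38, matched by gene ID without its version, since the build behind the counts is not stated.
FTH1, chr11:61967574-61967601, minus strand: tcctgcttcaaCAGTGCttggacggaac
FTL, chr19:48965336-48965363, plus strand: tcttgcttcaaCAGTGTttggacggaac
TFRC, chr3:196050979-196051006, minus strand: attatcggaagCAGTGCcttccataatt
TFRC, chr3:196050575-196050602, minus strand: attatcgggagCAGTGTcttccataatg
TFRC, chr3:196050510-196050537, minus strand: tgtatcggagaCAGTGAtctccatatgt
TFRC, chr3:196050463-196050490, minus strand: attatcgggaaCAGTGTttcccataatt
The FTH1 and FTL elements were identical at 26 of the 28 bases. They differed by C3T and C17T (FTH1 base, position from the 5′ end of the printed stretch, FTL base), of which the second lies in the loop.

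Total counts were 25862027 and 17694642 in the STAT3 shRNA libraries and 19283150 and 20133064 in the Ctrl shRNA libraries, so 3 reads correspond to 0.112 to 0.163 CPM, which are counts divided by library size with TMM factors. STAT3 itself had 34.7 and 36.1 CPM with STAT3 shRNA, against 244.8 and 244.1 CPM with Ctrl shRNA, a log2 fold change of -2.79 ± 0.09 (SE; adjusted p = 3.28e-07, edgeR). In such bulk libraries fewer cells of a type and less RNA per cell cannot be told apart. Markers of hepatocytes went against the liver label. Of 16 listed, 8 were in the table and are analysed here, and their summed level was 5.97 to 8.10 CPM in STAT3 shRNA and 1.80 to 1.99 CPM in Ctrl shRNA. Most of it was HNF4A, a transcription factor and the only one of the 8 that was tested, at 7.20 and 4.94 CPM in STAT3 shRNA and 1.27 and 1.78 CPM in Ctrl shRNA, and it rose 3.98-fold (adjusted p = 0.00131, edgeR). Albumin (ALB) had 0 and 3 reads in STAT3 shRNA and 0 reads in both Ctrl shRNA libraries, and APOA2 had 0 reads in all 4. The part of this in the results below was not tested. Macrophage markers (4 of 12 in the table) summed to 24.6 to 28.1 CPM in STAT3 shRNA and 11.2 to 15.4 CPM in Ctrl shRNA, nearly all of it CD68, a lysosomal protein of many cell types, while the defining CD14 had 1 to 4 reads per library. Fibroblast or stellate markers (8 of 9) summed to 43.0 to 45.7 CPM in STAT3 shRNA and 56.8 to 66.3 CPM in Ctrl shRNA. These did not move one way, since COL1A1, at means of 14.6 CPM in STAT3 shRNA and 40.6 CPM in Ctrl shRNA, fell, while DCN (14.9 and 10.9 CPM) and ACTA2 (7.78 and 3.70 CPM) rose. Erythroid markers (4 of 11, with HBA1 among those at 0 in every library and HBA2 the most abundant) and endothelial markers (4 of 8, led by CDH5 and VWF) stayed between 0.848 and 2.47 CPM in every library.

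With STAT3 shRNA, FTH1, TFRC and TFR2 rose and STEAP3 fell, while FTL, NCOA4, IREB2, ACO1, FBXL5 and HMOX1 did not pass the test (edgeR quasi-likelihood test, two-sided, adjusted p under 0.05 over 15199 genes). That is 3 of 10 genes higher, where 16.8% of all tested genes were higher, and 1 of 10 lower, where 18.7% were lower. The share that passed in either direction was thus near the 35.5% of all tested genes. The median log2 fold change was 0.10 over the 10 genes and 0.02 over all tested genes. Groups did not overlap in CPM for 9 of the 10, with STAT3 shRNA above in 6 and below in 3. Among all tested genes 70.8% showed no overlap, 36.5% with STAT3 shRNA above and 34.3% below.

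**Figure D1:**
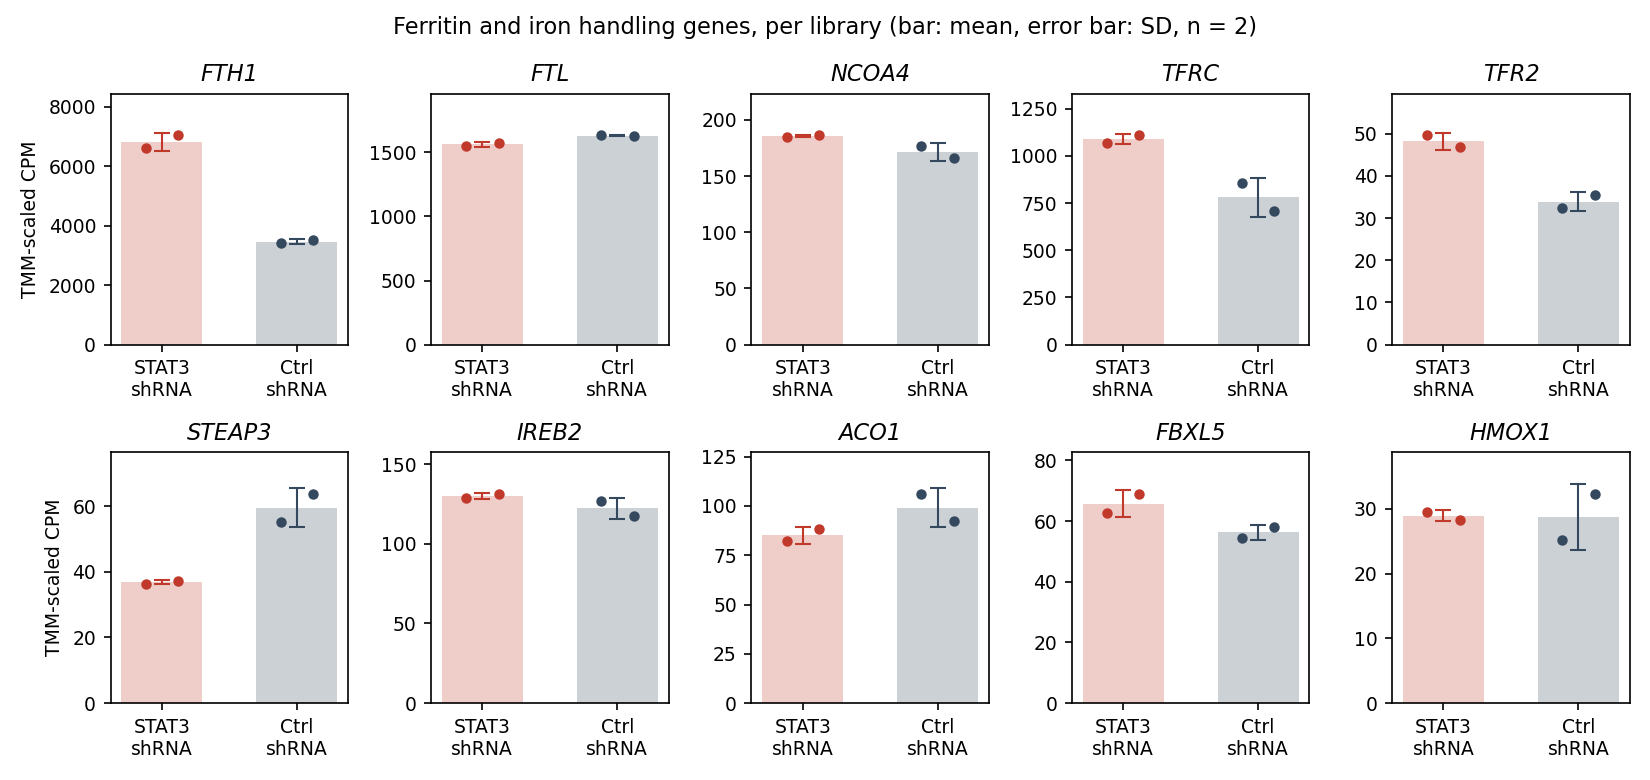
TMM-scaled CPM of the 10 iron genes in each library (points), with the mean (bar) and SD (error bar, n = 2) of STAT3 shRNA on the left and Ctrl shRNA on the right of each panel. Each vertical axis starts at 0 and has its own scale. FTH1 was near 6825 CPM with STAT3 shRNA and near 3466 CPM with Ctrl shRNA, while FTL differed by far less.

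FTH1, the ferritin heavy chain (ENSG00000167996.16; chromosome 11, 61959718 to 61967660, minus strand), showed the largest change of the 10. It had 176382 and 129650 reads in the STAT3 shRNA libraries and 64251 and 67579 reads in the Ctrl shRNA libraries. On the CPM scale these were 6610 and 7039 with STAT3 shRNA, against 3403 and 3529 with Ctrl shRNA. Both STAT3 shRNA libraries lay far above both Ctrl shRNA libraries, and the groups did not overlap. The means were 6825 ± 303 and 3466 ± 89.2 CPM (SD, n = 2 each), a 1.97-fold difference with a log2 fold change of 0.98 ± 0.07 (SE; 95% interval 0.81 to 1.14; adjusted p = 4.34e-05, edgeR). By deposited FPKM, which divides by length, FTH1 ranked 1 among all genes in both STAT3 shRNA libraries, and 5 and 11 in the Ctrl shRNA libraries. Its share of all reads was 0.682% and 0.733% with STAT3 shRNA, and 0.333% and 0.336% with Ctrl shRNA.

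FTH1 has many processed pseudogenes, so its reads could be split among copies. The table held 16 FTH1 pseudogenes, and together they had 61 and 29 reads in the STAT3 shRNA libraries and 32 and 18 in the Ctrl shRNA libraries, at most 0.0498% of the reads of FTH1 in a library. The ones with most reads were FTH1P20, with 25 and 7 reads in STAT3 shRNA and 13 and 2 in Ctrl shRNA, and FTH1P10, with 13 and 3 in STAT3 shRNA and 6 and 7 in Ctrl shRNA. With these reads added to FTH1 the log2 fold change was again 0.98, which so few reads could hardly alter. Reads that match several copies may have been left out before counting, since the aligner and counter are not given. The split among copies was thus not tested. The gene BEST1 on the opposite strand overlaps FTH1 and had 0.103% as many reads.

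FTL, the ferritin light chain (ENSG00000087086.15; chromosome 19, 48965301 to 48966878, plus strand), did not follow the heavy chain. Its CPM was 1550 and 1577 with STAT3 shRNA, against 1633 and 1627 with Ctrl shRNA. The groups did not overlap, with STAT3 shRNA slightly lower, yet the log2 fold change of -0.06 ± 0.07 (SE; 95% interval -0.22 to 0.10) did not pass (adjusted p = 0.557, edgeR). Judged by the spread between libraries alone, which may be technical, the interval excludes a change as large as that of FTH1. The value turned to 0.09 with a GC offset and to 0.13 with a length offset, and did not pass in either. The pseudogenes FTLP12 and FTLP6 held 8 and 2 reads in STAT3 shRNA and 2 and 2 in Ctrl shRNA.

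The balance of the chains therefore differed between the groups. FPKM of FTH1 over FPKM of FTL was 5.37 and 5.42 in the STAT3 shRNA libraries and 2.83 and 2.88 in the Ctrl shRNA libraries, means of 5.39 ± 0.04 and 2.85 ± 0.04 (SD, n = 2 each). In reads the ratio was 4.26 and 4.46 with STAT3 shRNA, against 2.08 and 2.17 with Ctrl shRNA. Neither ratio overlapped between the groups. For each, the exact two-sided permutation p was 0.333, the smallest that 2 libraries against 2 can give. These ratios describe mRNA and not the protein shell.

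NCOA4, the receptor that delivers ferritin to lysosomes (ENSG00000266412.5; chromosome 10, 46005088 to 46030714, minus strand), was at 184.9 and 186.2 CPM in STAT3 shRNA and at 177.0 and 166.0 CPM in Ctrl shRNA. Both STAT3 shRNA values were above both Ctrl shRNA values by a small margin. The log2 fold change of 0.11 ± 0.08 (SE) did not pass (adjusted p = 0.306, edgeR), and it was -0.03 with a GC offset.

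TFRC, the main transferrin receptor (ENSG00000072274.13; chromosome 3, 196027183 to 196082189, minus strand), rose. Its CPM was 1071 and 1109 with STAT3 shRNA, against 854.6 and 706.5 with Ctrl shRNA. The groups did not overlap, and the Ctrl shRNA libraries lay farther apart than the STAT3 shRNA libraries. Means were 1090 ± 27.1 and 780.6 ± 105 CPM (SD, n = 2 each), a 1.40-fold difference with a log2 fold change of 0.48 ± 0.10 (SE; 95% interval 0.26 to 0.71; adjusted p = 0.00614, edgeR). With a GC offset the log2 fold change of TFRC was 0.31 (adjusted p = 0.0133, edgeR). It was 0.51 without STAT3 shRNA replicate 1 and 0.46 without STAT3 shRNA replicate 2. Without Ctrl shRNA replicate 1 it was 0.59, and without Ctrl shRNA replicate 2 it was 0.35.

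TFR2, a second transferrin receptor that in liver takes part in sensing iron (ENSG00000106327.13; chromosome 7, 100620416 to 100642779, minus strand), was expressed at a far lower level and rose by a like factor. It was at 49.6 and 46.8 CPM with STAT3 shRNA, against 32.3 and 35.5 CPM with Ctrl shRNA. All STAT3 shRNA values exceeded all Ctrl shRNA values, with a 1.42-fold difference of means and a log2 fold change of 0.51 ± 0.10 (SE; adjusted p = 0.00468, edgeR). Without STAT3 shRNA replicate 1 the call of TFR2 was lost (log2 fold change 0.47, adjusted p = 0.0759, edgeR), and with a GC offset the value was 0.79. FPKM of TFRC over TFR2 was 7.80 and 9.15 in STAT3 shRNA and 9.33 and 6.81 in Ctrl shRNA, values that overlapped between the groups.

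STEAP3, the reductase of endosomal iron (ENSG00000115107.20; chromosome 2, 119223831 to 119265652, plus strand), was the only one of the 10 genes that fell. Its CPM was 36.4 and 37.2 with STAT3 shRNA, against 55.3 and 63.7 with Ctrl shRNA. The groups were well apart, with means of 36.8 ± 0.579 and 59.5 ± 5.95 CPM (SD, n = 2 each). It fell by 0.69 on the log2 scale (SE 0.10; 95% interval -0.92 to -0.46; adjusted p = 0.00123, edgeR), that is 1.62-fold. The uptake genes thus moved in opposite directions, with both transferrin receptors higher and STEAP3 lower.

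The genes that sense iron changed little in counts. IREB2, which encodes IRP2 (ENSG00000136381.13; chromosome 15, 78437431 to 78501456, plus strand), was at 128.5 and 131.3 CPM with STAT3 shRNA and at 127.0 and 117.5 CPM with Ctrl shRNA. Its log2 fold change was 0.09 ± 0.08 (SE; adjusted p = 0.448, edgeR), and it turned to -0.11 with a GC offset and to -0.01 with a length offset. ACO1, which encodes IRP1, a cytosolic aconitase when it holds an iron-sulfur cluster (ENSG00000122729.19; chromosome 9, 32384603 to 32454769, plus strand), was at 82.1 and 88.1 CPM with STAT3 shRNA and at 106.1 and 92.1 CPM with Ctrl shRNA. Both STAT3 shRNA values of ACO1 were below both Ctrl shRNA values, but the log2 fold change of -0.22 ± 0.10 (SE) did not pass (adjusted p = 0.106, edgeR). ACO1 passed without Ctrl shRNA replicate 2 (-0.33, adjusted p = 0.00538, edgeR), with a GC offset (-0.32, 0.0129) and with a length offset (-0.34, 0.0123). FPKM of IREB2 over ACO1 was 1.04 and 1.02 in STAT3 shRNA and 0.953 and 0.844 in Ctrl shRNA, so the mRNAs of these regulators were present at like levels per length.

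FBXL5, which targets IRP2 for degradation (ENSG00000118564.14; chromosome 4, 15604539 to 15681679, minus strand), was at 62.6 and 69.0 CPM in STAT3 shRNA and at 54.5 and 58.0 CPM in Ctrl shRNA. The log2 fold change of 0.22 ± 0.09 (SE; 95% interval 0.01 to 0.44) did not pass (adjusted p = 0.0926, edgeR). It passed without Ctrl shRNA replicate 2 (0.26, adjusted p = 0.034, edgeR), while the value was 0.15 without STAT3 shRNA replicate 2 and 0.14 without Ctrl shRNA replicate 1. With a GC offset it was 0.02. The opposite-strand gene FAM200B overlaps FBXL5 and had 25.7% as many reads. The use of strand is not given in the sources used here, so some reads may be assigned to the wrong gene. How many reads lie in the shared bases was not measured.

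HMOX1, the stress-inducible enzyme that breaks heme down and frees its iron (ENSG00000100292.17; chromosome 22, 35380361 to 35394214, plus strand), was at 29.6 and 28.3 CPM with STAT3 shRNA and at 25.2 and 32.3 CPM with Ctrl shRNA. It was the 1 gene of the 10 whose groups overlapped, with both STAT3 shRNA values inside the range of the Ctrl shRNA pair. Its fitted log2 fold change of 0.01 ± 0.13 (SE; 95% interval -0.28 to 0.31) did not pass (adjusted p = 0.956, edgeR), and its sign changed with the scaling (-0.007 with RLE).

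**Figure D2:**
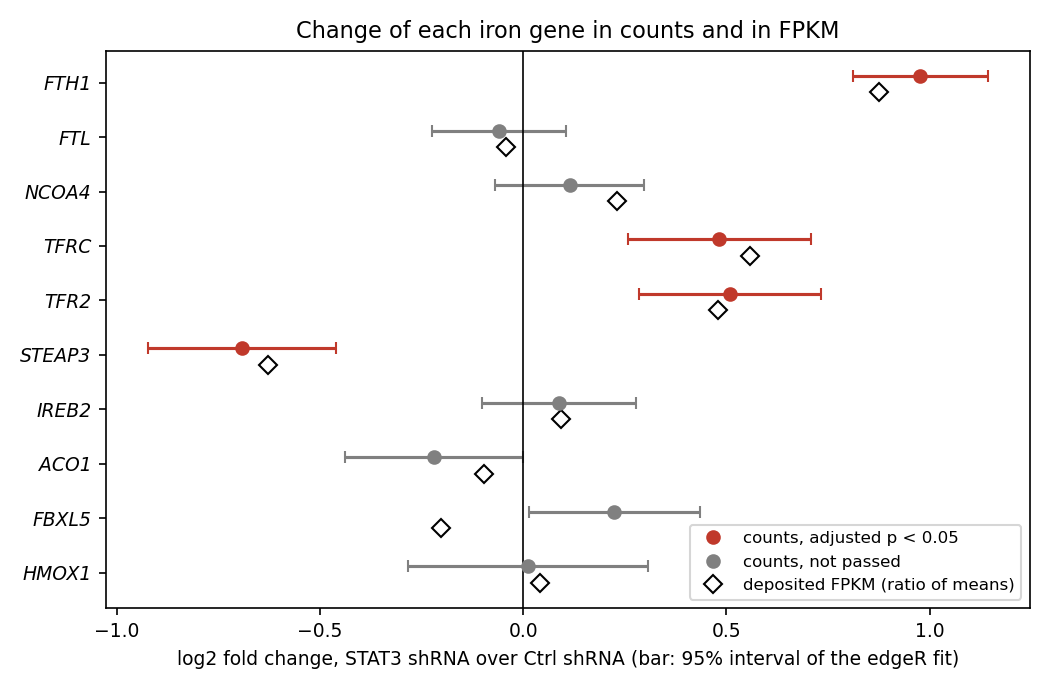
Log2 fold change of each iron gene, STAT3 shRNA over Ctrl shRNA. Circles and bars show the estimate from counts with its 95% interval (edgeR), and diamonds show the log2 ratio of mean deposited FPKM, without error. FTH1 lies farthest to the right by both measures, and FBXL5 is the gene for which counts (0.22) and FPKM (-0.20) lie on opposite sides of 0.

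Deposited FPKM gave the same direction as counts for 9 of the 10 genes. FTH1 was at 13410 and 14230 FPKM with STAT3 shRNA, against 7328 and 7734 FPKM with Ctrl shRNA, a log2 ratio of means of 0.88 where counts gave 0.98. FPKM of FTH1 also did not overlap between the groups. In limma-trend on log2(FPKM + 1) its log2 fold change of 0.88 ± 0.22 (SE) missed the threshold (adjusted p = 0.0622), as did those of TFR2 (0.46, adjusted p = 0.0632) and STEAP3 (-0.59, adjusted p = 0.0685), while TFRC passed (0.56, adjusted p = 0.0476). That test called 12.9% of 15611 genes, against 35.5% in counts. With a pseudocount of 0.1 the adjusted p of FTH1 was 0.0517, that of TFRC 0.0502, that of TFR2 0.065 and that of STEAP3 0.0696 (limma-trend), so none of the 10 genes passed, and at an unadjusted p under 0.05 4 were higher and 1 lower, where 18.5% of all genes in that test were higher and 15.9% lower.

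Counts and FPKM of a library together imply the transcript length that was used for a gene, and this length differed between libraries. For FTH1 it was 509 and 515 bases in the STAT3 shRNA libraries and 455 and 434 bases in the Ctrl shRNA libraries, a ratio of 1.15. Over 10400 well-covered genes the median ratio was 1.02 and 95% of genes lay between 0.791 and 1.39. FBXL5 was outside that range, at 2856 and 2564 bases with STAT3 shRNA and 2026 and 1729 bases with Ctrl shRNA, a ratio of 1.44 that exceeded those of 98.2% of the genes. Its FPKM was 22.6 and 28.0 with STAT3 shRNA and 26.3 and 31.9 with Ctrl shRNA, values that overlapped between the groups. The other 8 genes had ratios of 0.984 (ACO1) to 1.10 (TFR2). Whether lengths differed through the isoforms that were present or through the estimation was not tested.

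**Figure D3:**
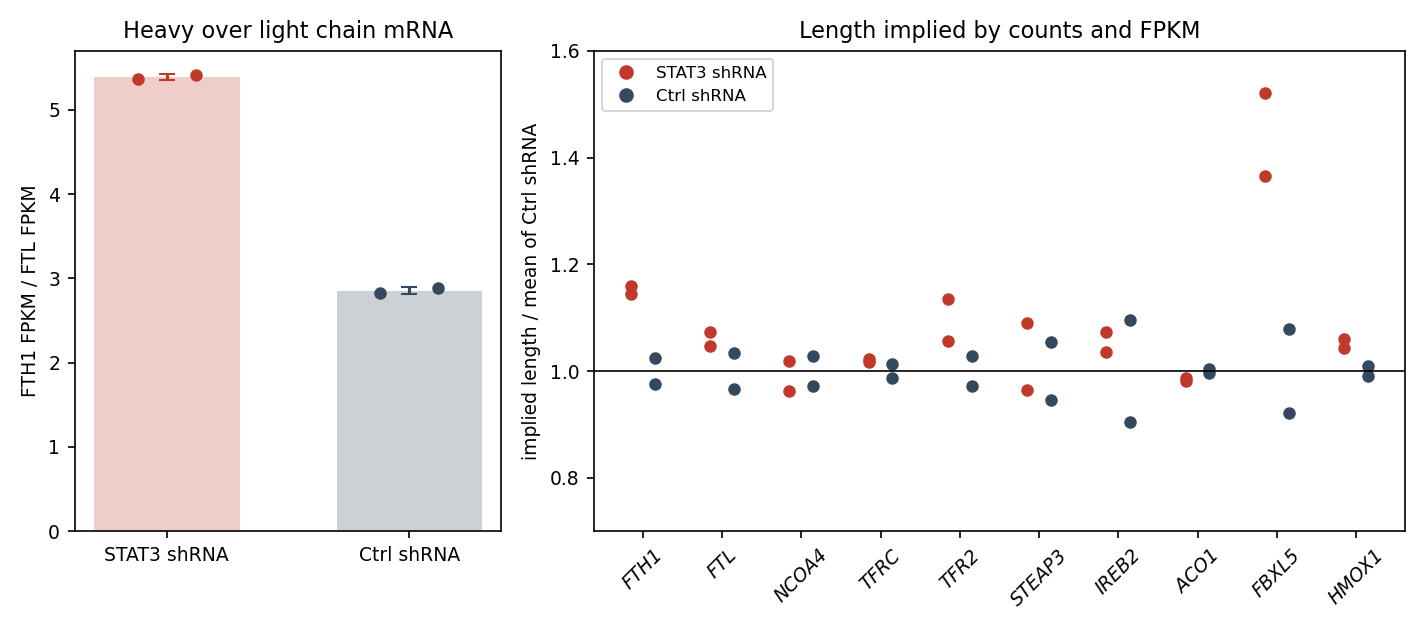
Left, FPKM of FTH1 over FPKM of FTL in each library (points), with mean and SD (n = 2), at 5.39 for STAT3 shRNA and 2.85 for Ctrl shRNA. Right, length implied by counts and FPKM in each library, divided by the mean of the Ctrl shRNA libraries. FBXL5 at 1.44 and FTH1 at 1.15 are the genes with the highest mean ratios.

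Per length, the 10 genes spanned about 3 orders of magnitude. In STAT3 shRNA, mean FPKM was 13820 ± 580 for FTH1, 2562 ± 89.4 for FTL, 246.5 ± 6.54 for TFRC and 61.3 ± 1.84 for NCOA4 (SD, n = 2). In Ctrl shRNA the same genes were at 7531 ± 287, 2638 ± 64.7, 167.5 ± 22.8 and 52.2 ± 1.36 FPKM, in the same order, and the libraries of neighbouring genes did not overlap. Below NCOA4, FPKM of TFR2, IREB2, FBXL5, ACO1 and HMOX1 lay between 22.6 and 31.0 in the STAT3 shRNA libraries and between 19.7 and 31.9 in the Ctrl shRNA libraries. In STAT3 shRNA, TFR2 lay above IREB2 in both libraries, while IREB2, FBXL5, ACO1 and HMOX1 each overlapped with the next in order of mean. In Ctrl shRNA the order of means was FBXL5, ACO1, IREB2, HMOX1 and TFR2, and each of these overlapped with the next, so their rank is not resolved. STEAP3 was lowest by mean FPKM in both groups, at 12.4 ± 1.35 with STAT3 shRNA and 19.2 ± 3.01 with Ctrl shRNA, and in Ctrl shRNA it overlapped with TFR2, the gene above it.

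The 10 genes lie on 10 chromosomes and were not neighbours. Around FTH1, the 50 nearest tested genes had a median log2 fold change of -0.14, with 6 higher and 16 lower, so FTH1 rose among genes that were more often lower. Around STEAP3 the median was 0.22, with 16 higher and 4 lower, the opposite of STEAP3 itself. Around TFRC it was 0.23, with 15 higher and 3 lower. Fold changes across all genes went down with the GC content of the transcript (Spearman rho -0.339 over 14545 genes, a description, since genes share libraries). GC content was 50.1% for FTH1 and 56.3% for FTL, against a median of 48.7% over tested genes, 41.5% for TFRC and 62.0% for TFR2. In RefSeq promoters (GRCh38.p14, 250 bases before to 50 after the start), 7 of the 10 genes had an entry; FTH1, TFR2 and HMOX1 were not searched. The STAT-type pattern TTCNNNGAA, which reads the same on both strands, was in 0 of these 7 and in 7.66% of 35116 promoters. The antioxidant-type pattern TGACNNNGC, searched on both strands, was in 2 of the 7 (FBXL5 and NCOA4) and in 13.3% of all promoters. For both patterns a gene counted if any of its promoters matched, while the shares are per promoter, so the 2 are not like for like. NCOA4 also had a promoter without a match. A match is a run of letters, not a bound site.

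Beyond these genes, 90 others of iron and heme metabolism were listed by role, of which 85 were in the table and 79 were tested. Of these 26 fell and 7 rose with STAT3 shRNA, against 18.7% lower and 16.8% higher among all tested genes, with a median log2 fold change of -0.12 against 0.02 (edgeR). Without STAT3 shRNA replicate 1 the counts were 13 lower and 3 higher, where 8.86% of all tested genes were lower and 7.16% higher. Without STAT3 shRNA replicate 2 they were 13 lower and 2 higher, where 8.95% of all tested genes were lower and 7.23% higher. In limma-trend on log2(FPKM + 1), 9 were lower and 3 higher, where 6.16% of all tested genes were lower and 6.71% higher. Of the genes named below, HMOX2, BLVRB, UROD, PPOX, FURIN, PCBP1, CIAO1 and SKP1 no longer passed.

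**Figure D4:**
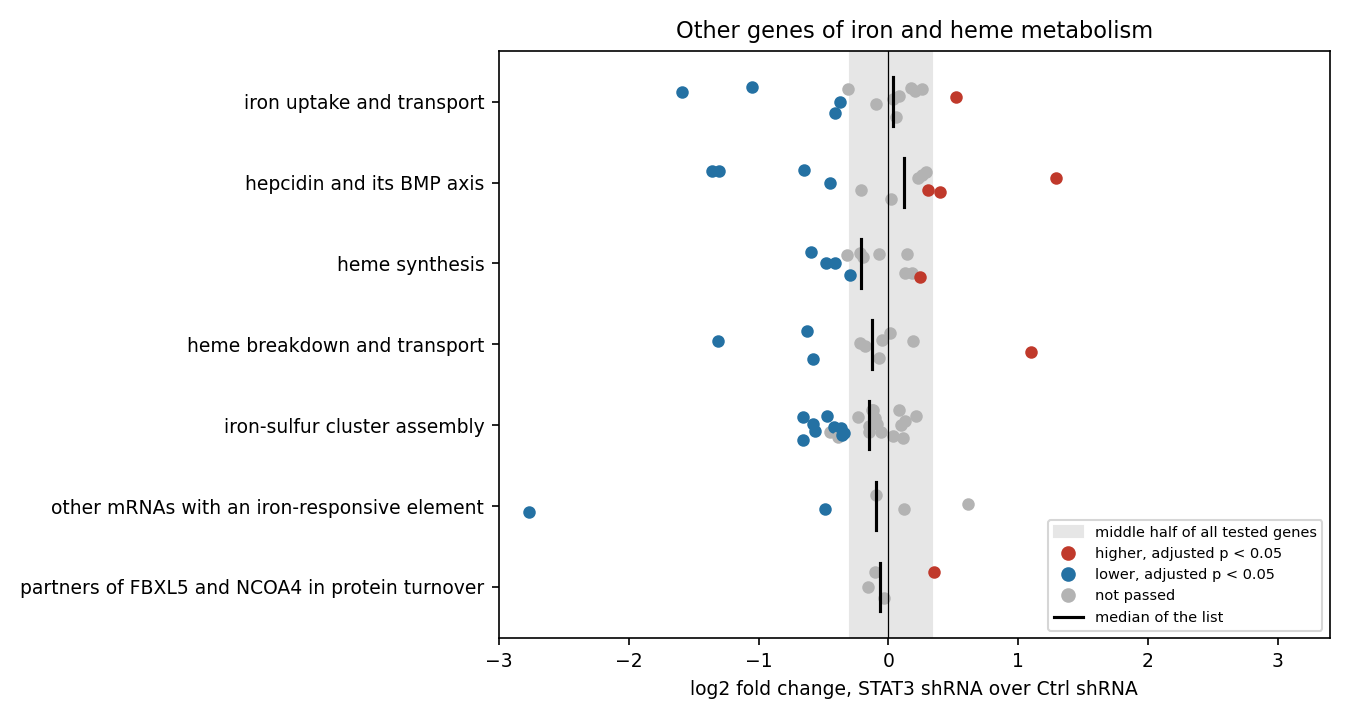
Log2 fold change (STAT3 shRNA over Ctrl shRNA, edgeR) of other tested genes of iron and heme metabolism, one row per list. Colours mark genes that passed in each direction, black bars the median of a list, and the grey band the range between the quartiles of all tested genes, from -0.30 to 0.33. The iron-sulfur cluster row holds 9 genes of 25 that fell and 0 that rose, where 18.7% of all tested genes fell and 16.8% rose. EPAS1 lies farthest to the left.

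Iron-sulfur cluster assembly, which uses mitochondrial iron for enzyme cofactors, had 9 of 25 genes lower and 0 higher (median log2 fold change -0.15). Shares over all tested genes were 18.7% lower and 16.8% higher (edgeR). At an unadjusted p under 0.05 the list had 10 lower and 0 higher (edgeR), where 23.2% of all tested genes were lower and 22.5% higher. DESeq2 called 6 lower and 0 higher, where it called 14.8% lower and 9.93% higher among the 16385 genes to which it gave an adjusted p. GLRX5, a glutaredoxin that passes clusters on, was at 42.9 and 46.1 CPM in STAT3 shRNA and 71.4 and 68.7 CPM in Ctrl shRNA (log2 fold change -0.66, adjusted p = 0.000859, edgeR). SNHG10 on the opposite strand overlaps GLRX5 and had 18.7% as many reads. CIAO1 and CIAO2B, parts of the cytosolic targeting complex, fell by 0.48 and by 0.58 on the log2 scale (adjusted p = 0.00307 and 0.00536, edgeR). CIAO1 was lost without STAT3 shRNA replicate 1 (adjusted p = 0.0715, edgeR) and CIAO2B without STAT3 shRNA replicate 2 (0.0581). With a GC offset the log2 fold change of CIAO2B was -0.30 (adjusted p = 0.0261, edgeR). The scaffold gene ISCU did not pass (log2 fold change 0.13, adjusted p = 0.333, edgeR).

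Heme synthesis had 4 of 12 tested genes lower and 1 higher, with a median log2 fold change of -0.21. DESeq2 called 2 lower and 0 higher, and at an unadjusted p under 0.05 edgeR had 6 lower and 1 higher. Of all tested genes, 18.7% were lower and 16.8% higher at an adjusted p under 0.05 (edgeR). The shares were 23.2% and 22.5% at an unadjusted p under 0.05 (edgeR), and 14.8% and 9.93% in DESeq2. UROD and PPOX, enzymes of the heme synthesis chain, fell by 0.48 and by 0.41 on the log2 scale (adjusted p = 0.00696 and 0.0236, edgeR). UROD was lost without STAT3 shRNA replicate 1 (0.0619) or replicate 2 (0.0568). PPOX was lost without any of STAT3 shRNA replicate 1 (0.166), STAT3 shRNA replicate 2 (0.144) and Ctrl shRNA replicate 2 (0.0506), as well as with DESeq2 (0.0748) and with a GC offset (0.166). It overlaps B4GALT3, which had more reads. In heme breakdown and transport 3 of 10 fell and 1 rose, against 18.7% lower and 16.8% higher among all tested genes (edgeR). The median log2 fold change of that list was -0.13. The heme exporter ABCG2 was at 24.1 and 23.4 CPM with STAT3 shRNA and at 62.2 and 55.8 CPM with Ctrl shRNA, a fall of 2.48-fold (adjusted p = 5.37e-05, edgeR). HMOX2, the constitutive heme oxygenase, fell by 0.58 on the log2 scale (adjusted p = 0.0027, edgeR) where HMOX1 had a value of 0.01. It overlaps NMRAL1, which had more reads, and was lost without STAT3 shRNA replicate 1 (0.0532). BLVRB, a biliverdin reductase, fell by 0.63 (adjusted p = 0.00295, edgeR).

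Among other genes of iron uptake and transport 4 of 13 fell and 1 rose (edgeR), where DESeq2 called 2 lower and 1 higher. The median log2 fold change of the list was 0.03. Of all tested genes, 18.7% were lower and 16.8% higher in edgeR, and 14.8% were lower and 9.93% higher in DESeq2. STEAP4, a metalloreductase related to STEAP3, was at 126.5 and 137.7 CPM in STAT3 shRNA and 298.4 and 248.4 CPM in Ctrl shRNA, so it fell 2.07-fold (adjusted p = 0.000192, edgeR). PCBP1, an iron chaperone that loads ferritin, fell by 0.37 on the log2 scale (adjusted p = 0.00743, edgeR), a call lost without STAT3 shRNA replicate 1 (0.0779) or replicate 2 (0.143), and its log2 fold change was -0.23 with a GC offset (0.0226). CP, the ferroxidase ceruloplasmin, rose to 159.3 and 167.2 CPM in STAT3 shRNA, against 109.5 and 117.9 CPM in Ctrl shRNA (log2 fold change 0.52, adjusted p = 0.00191, edgeR). With a GC offset the log2 fold change of CP was 0.31 (adjusted p = 0.029, edgeR). HPS3 on the opposite strand overlaps CP and had 53.6% as many reads.

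In the hepcidin list 4 of 12 tested genes fell and 3 rose (edgeR), where DESeq2 called 3 lower and 1 higher. Of all tested genes, 18.7% were lower and 16.8% higher in edgeR, and 14.8% lower and 9.93% higher in DESeq2. The list did not move one way, with a median log2 fold change of 0.12. BMP6, ID1 and FURIN, described below for their small p-values, are among those that fell. HAMP, the hepcidin gene and a hepatocyte product, had 0 reads in all 4 libraries, which allows up to 0.112 to 0.163 CPM. BMP6, the ligand that drives HAMP in liver, was at 15.3 and 13.7 CPM with STAT3 shRNA and at 33.2 and 38.8 CPM with Ctrl shRNA, a fall of 2.48-fold (adjusted p = 0.000137, edgeR). ID1, a target of BMP signals, was at 59.9 and 62.3 CPM with STAT3 shRNA and at 125.5 and 187.6 CPM with Ctrl shRNA (log2 fold change -1.36, adjusted p = 0.000461, edgeR). FURIN, a protease that matures hepcidin, fell by 0.65 on the log2 scale (adjusted p = 0.00181, edgeR), and its log2 fold change was -0.38 with a GC offset (adjusted p = 0.00386).

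Of 5 tested mRNAs in the list of further iron-responsive elements, 2 fell and 0 rose (0 also at an unadjusted p under 0.05 in edgeR and in DESeq2). Their median log2 fold change was -0.09. Shares over all tested genes were 18.7% lower and 16.8% higher (edgeR). They were 23.2% and 22.5% at an unadjusted p under 0.05 (edgeR), and 14.8% and 9.93% in DESeq2. EPAS1, the hypoxia factor HIF-2 alpha, was at 7.31 and 6.24 CPM in STAT3 shRNA and 47.1 and 45.8 CPM in Ctrl shRNA, a fall of 6.86-fold (adjusted p = 2.69e-06, edgeR). CDC14A, a phosphatase, had a log2 fold change of 0.61 and did not pass (adjusted p = 0.16, edgeR). In the list of turnover partners 1 of 4 rose and 0 fell (0 also at an unadjusted p under 0.05 in edgeR and in DESeq2). The median log2 fold change there was -0.07, and the shares over all tested genes are those just given. SKP1, a subunit of the ubiquitin ligase that FBXL5 joins, rose to 315.7 and 322.3 CPM in STAT3 shRNA, against 247.5 and 252.5 CPM in Ctrl shRNA (log2 fold change 0.35, adjusted p = 0.00829, edgeR). That call was lost without STAT3 shRNA replicate 1 (0.102) or replicate 2 (0.135) and with a GC offset (0.102) or a length offset (0.0699). RBX1, another subunit, had -0.15 and passed only without Ctrl shRNA replicate 1 (-0.27, adjusted p = 0.0369, edgeR). HERC2, the ligase that acts on NCOA4, had -0.11 in counts and 0.47 in FPKM, passed in neither, and has near-identical copies with reads, of which HERC2P2 had 48.7% as many.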

How the data were processed

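The authors deposited raw read counts and FPKM per gene for 4 libraries, per the file headers. For the aligner, counter, build, annotation, library kit and strand use: not given in the sources used here. Columns were matched to samples by name; "Si" was read as STAT3 shRNA, the only arm besides the control. The test of counts was edgeR 4.0.16 under R 4.3.3 (filterByExpr; TMM; glmQLFit and glmQLFTest, group as the only term; Benjamini-Hochberg over 15199 genes, threshold 0.05). SEs come from the quasi-likelihood F. FPKM, at least 0.5 in 2 libraries, were tested with limma 3.58.1. DESeq2 1.42.0 was an alternative. On counts simulated for this comparison the edgeR fit was checked. Positions, length and GC content (longest transcript) are from GENCODE 29, matched without ID version; copies came from blastn 2.17.0.

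Members and lists were chosen with earlier results of these data known. Named in the lists were the 3 smallest p-values of each, less some not reported here, and in addition ISCU and HAMP for their roles. Within each group the pair of libraries was farther apart than counting error (chi-square per degree of freedom 4.39 for STAT3 shRNA and 15.0 for Ctrl shRNA). Floors cover counting error only.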

Additional observations from a re-analysis of the deposited data

How the results depend on the processing

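Of 528 log2 fold changes of the named genes recomputed under alternatives, 448 kept their direction and side of the threshold, 62 no longer passed, 5 newly passed and 13 changed sign. With 1 library left out, the number of changed genes ran from 2514 to 7291 (5396 with all 4), iron genes higher from 2 to 4 and lower from 1 to 2, and listed pathway genes higher from 2 to 9 and lower from 13 to 33. In limma-trend on FPKM, 2009 (pseudocount 1) and 1847 (0.1) genes changed; 1 and 0 of the 10 iron genes were higher and 0 lower in both (unadjusted, 4 higher and 1 lower), and pathway genes were 3 higher with 9 and 7 lower. FTH1 was then 0.875 and 0.876. At an adjusted p under 0.01, 2897 genes changed and pathway genes were 4 higher and 17 lower. Tested against a fold of 1.5, 999 genes, 1 iron gene higher and 0 lower (FTH1 alone), and 1 pathway gene higher and 5 lower passed. DESeq2 called 4 pathway genes higher. GC and length offsets each gave 2 iron genes lower, adding ACO1.

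Sign changes, all in genes that passed in neither fit, were HMOX1 (-0.007 with RLE scaling, -0.015 with DESeq2, -0.02 without STAT3 shRNA replicate 1, -0.19 without Ctrl shRNA replicate 1, in a range of -0.19 to 0.2 with 1 library left out), FBXL5 (-0.197 and -0.203 with FPKM), HERC2 (0.466 and 0.485 with FPKM), FTL (0.094 with GC and 0.125 with length offset), IREB2 (-0.114 and -0.012) and NCOA4 (-0.033 with GC offset). The causes were not tested. The replicate numbers are shared only as numbers (correlation of same-number deviations -0.038). With the replicate block 5447 genes changed, 3 iron genes were higher and 1 lower, and pathway genes were 6 higher and 24 lower.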
